A study of Homo sapiens with 8 samples.

Results

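The let-7 microRNAs and the RNA-binding proteins that hold them back, LIN28A and LIN28B, were followed in HAP1 cells, wild-type or knocked out for BCDIN3D. The members were taken by name: 20 mature names that begin with let-7 or miR-98, of 2656 microRNA names counted in small RNA libraries, and the genes LIN28A and LIN28B, of 57996 gene symbols counted in total RNA libraries. Of the 20 microRNA names 17 had at least 1 read, 3 had 0 reads in every library (let-7c-3p, let-7f-1-3p and let-7i-3p), and 13 had enough reads to be tested. HAP1 cells are a human line with a nearly haploid genome that goes back to a chronic myelogenous leukaemia. The libraries came from HAP1 cells labelled WT and from cells labelled BCDIN3D KO clone 11, a knockout made in the same line. All cells grew for 48 h in IMDM with 10% serum, and the same RNA, of integrity number 10, went into both assays. Each assay had 2 libraries per group, and replicate 1 of every group carries the date of 6 May in its label and replicate 2 that of 9 May. The submitters call these biological replicates. Nothing says whether they came from independent cultures; each p-value therefore reflects the spread among these libraries alone, which may in part be technical. Since the knockout was 1 clone, effects of the lost gene and differences between clones cannot be told apart.

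The let-7 RNAs are among the best conserved animal microRNAs and become abundant as cells differentiate, when they repress growth and embryonic genes such as HMGA2 and IGF2BP1. Each is cut from a longer transcript as a hairpin by DROSHA with DGCR8 and then trimmed by DICER1. LIN28A and LIN28B, which are high in embryonic cells and in many tumours, bind the hairpin through a cold shock domain and zinc knuckles, the latter at a GGAG element, and keep it from being processed. In the cytoplasm LIN28A recruits the uridylating enzymes TUT4 and TUT7, and the tailed hairpin is destroyed by the nuclease DIS3L2. BCDIN3D is a methyltransferase of RNA 5′ ends, with histidine tRNA and microRNA precursors among its described substrates.

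The family is defined by its seed, the bases at positions 2 to 8 that pair with a target. The mature sequences are shown because the members differ from each other by so few bases that the assignment of reads between names is part of the measurement. RefSeq (GRCh38.p14) held 19 of the 20 names; let-7f-2-3p was not matched. The 9 names of the 5′ arm share 1 seed, printed in capitals, and all 9 are 22 bases long. The prefix hsa, for human, is left out elsewhere.
hsa-let-7a-5p: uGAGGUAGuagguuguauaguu
hsa-let-7b-5p: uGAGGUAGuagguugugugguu
hsa-let-7c-5p: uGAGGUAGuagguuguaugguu
hsa-let-7d-5p: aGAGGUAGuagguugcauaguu
hsa-let-7e-5p: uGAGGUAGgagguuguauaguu
hsa-let-7f-5p: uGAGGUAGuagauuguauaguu
hsa-let-7g-5p: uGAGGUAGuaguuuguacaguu
hsa-let-7i-5p: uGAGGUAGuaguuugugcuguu
hsa-miR-98-5p: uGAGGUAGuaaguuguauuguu
Counted from 1 at the 5′ end, with the base of let-7a-5p first, let-7c-5p differs from let-7a-5p by A19G, let-7e-5p by U9G and let-7f-5p by G12A, each a single change. The let-7b-5p sequence carries A17G and A19G, let-7d-5p carries U1A and U16C, let-7g-5p carries G12U and U18C, and miR-98-5p carries G11A and A19U. The most distant, let-7i-5p, differs at 4 positions (G12U, A17G, U18C and A19U). let-7a-5p is cut from 3 hairpins and let-7f-5p from 2, so a count for either name pools its loci. The rule by which reads with mismatches or several matches were assigned is not given in the sources used here. A pair of other microRNAs with the same seed, miR-4458 and miR-4500, had 5 reads in wild-type replicate 1 and 6 reads in knockout replicate 1, and 0 reads elsewhere.

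The hairpins were searched for the letters GGAG between the 2 mature arms, on the strand of the hairpin, because LIN28 recognises that element. It was present in 8 of the 11 let-7 and miR-98 hairpins for which RefSeq lists both arms (72.7%), against 52 of 728 other hairpins (7.14%). In each of the 8 a copy lay 4 bases before the 3′ arm, and the let-7e hairpin held 2 copies in all. The hairpin of let-7f-2, for which 1 arm was matched, also held the element after that arm, which made 9 of 12. The hairpins of let-7a-3, let-7b and miR-98 did not. A match is a description of the sequence and not a measured binding site. An example with the element in capitals and the 3 hairpins without it are as follows.
let-7g: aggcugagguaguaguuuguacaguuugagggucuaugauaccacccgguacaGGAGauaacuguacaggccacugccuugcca
let-7a-3: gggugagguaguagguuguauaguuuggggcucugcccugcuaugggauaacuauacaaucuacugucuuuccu
let-7b: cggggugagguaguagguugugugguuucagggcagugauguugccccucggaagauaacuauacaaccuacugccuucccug
miR-98: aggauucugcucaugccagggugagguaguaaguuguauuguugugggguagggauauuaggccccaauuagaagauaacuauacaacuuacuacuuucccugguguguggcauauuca
The let-7g hairpin lies at chr3:52268278-52268361 on the minus strand, within the bounds of WDR82. The hairpins of let-7a-3 (chr22:46112749-46112822) and let-7b (chr22:46113686-46113768) lie on the plus strand within the host transcript MIRLET7BHG, and that of miR-98 (chrX:53556223-53556341, minus strand) lies within HUWE1. Exon and intron bounds were not used here.

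The libraries differed in depth far more between assays than between groups. The RNA-seq libraries held 20065041 to 24415272 counts and the small RNA libraries 157706 to 346626 microRNA counts, so that 1 small RNA read was worth 2.91 to 5.50 CPM (counts scaled to a common library size by the TMM method). Replicates of a group differed by more than counting error: their counts gave a chi-square per degree of freedom of 3.62 (wild-type) and 4.37 (knockout) in RNA-seq, and of 19.1 in either group of small RNA libraries. The name miR-3168 alone took 31.1% to 43.4% of the small RNA counts. The targeted gene BCDIN3D had 154 and 121 reads in wild-type and 33 and 54 in knockout (log2 fold change -1.52 ± 0.24, SE; edgeR adjusted p = 2.06e-05), so it was lower but still counted. Of 14 blood cell markers 9 stayed under 1 CPM in every library, and the summed level of the list was 73.0 to 78.5 CPM. The transcription factor gene TAL1, at 45.8 to 60.02 CPM, made up most of that sum, with CEBPA at 9.68 to 11.5 CPM, KIT at 10.8 and 11.0 CPM in wild-type and 0.804 and 1.41 CPM in knockout, and RUNX1 at 3.12 to 4.25 CPM. The pan-leukocyte gene PTPRC had 0 to 4 reads and the globin gene HBG1 had 0. Of 8 fibroblast markers 5 stayed under 1 CPM and DCN and LUM were at 0. The summed level of 70.9 to 85.4 CPM was mostly that of the receptor gene PDGFRA (60.6 to 72.9 CPM), with the collagen gene COL1A1 at up to 9.19 CPM. Genes of pluripotent cells, in which LIN28A is usually high, were mixed. SOX2 stood at 371 to 485 CPM, DPPA4 at 216 to 235 CPM and POU5F1 at 192 to 234 CPM. NANOG, by contrast, had 1 read in all libraries together, and 6 of the 14 listed genes stayed under 1 CPM. The called members of these 3 lists were KIT (-3.30 ± 0.23), POSTN (-1.37 ± 0.36) and KLF4 (-2.09 ± 0.21), which fell in knockout, and TAL1 (0.32 ± 0.08), which rose. Of 5 blood markers tested 1 was higher and 1 lower, and 1 of 4 fibroblast markers and 1 of 9 pluripotency genes were lower. Over all genes tested 6.56% were called (edgeR), and nothing is read from lists this short. The POSTN call was lost with DESeq2 (adjusted p = 0.171), without wild-type replicate 1 (adjusted p = 0.0657) and without knockout replicate 2 (adjusted p = 0.344), and that of TAL1 without wild-type replicate 1 (adjusted p = 0.237). Their part in the results below was not tested.

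The let-7 family was a minor part of the microRNA counts in wild-type and knockout cells alike. It took 0.114% of counts in wild-type replicate 1 (269 reads, Wilson 95% interval 0.101% to 0.128%), 0.143% in wild-type replicate 2 (382 reads, 0.130% to 0.158%), 0.154% in knockout replicate 1 (243 reads, 0.136% to 0.175%) and 0.153% in knockout replicate 2 (529 reads, 0.140% to 0.166%). Both knockout libraries lay above both wild-type libraries. At the first date the intervals did not overlap, and at the second they did. The intervals cover counting error alone and leave out the spread between libraries. The reads carried no molecular identifiers, so copies made by amplification were not told apart from separate molecules. The wild-type mean was 0.129% ± 0.0208 and the knockout mean 0.153% ± 0.00104 (SD, n = 2), and the gap depended on the dominant names: with miR-3168 and miR-8052 left out of the totals the means were 0.235% and 0.247%. On those totals knockout replicate 2 lay just below wild-type replicate 2, so the groups overlapped. No test was made of the summed family.

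let-7a-5p was the leading member and, in scaled CPM, the most even. It had 113 and 124 reads in wild-type and 100 and 187 in knockout, or 522 and 535 CPM against 549.7 and 544 CPM. Both knockout libraries lay above both wild-type libraries, by a margin that a few reads can make, since 1 read was worth 4.32 CPM in wild-type replicate 2 and 2.91 CPM in knockout replicate 2. Its log2 fold change was 0.05 ± 0.47 (SE; edgeR adjusted p = 0.999), with a 95% interval of -1.05 to 1.15. let-7a-5p ranked between the 41st and the 48th most counted name in each library and supplied 32.5% to 42.0% of the family's reads.

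**Figure D1:**
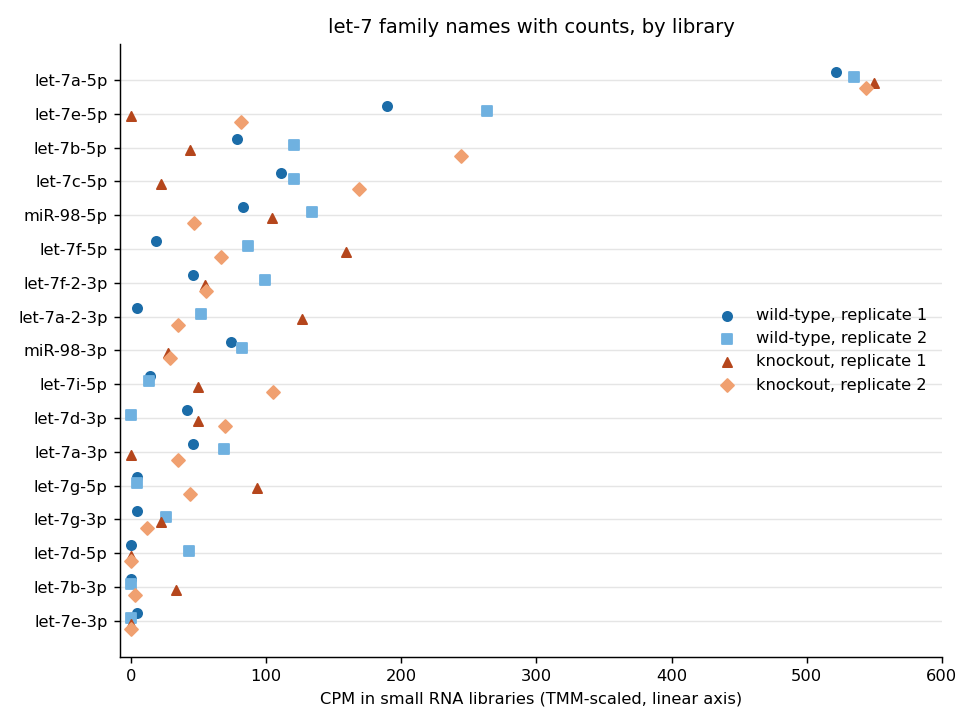
Level of each of the 17 let-7 family names with reads, in CPM on a linear axis, with 1 marker per small RNA library (circles and squares wild-type, triangles and diamonds knockout). The markers of let-7a-5p lie together between 522 and 549.7 CPM, above every other name, and those of most other names are scattered by several-fold within a group.

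Below let-7a-5p the levels formed a continuum without clear steps. Averaged over the 4 libraries, let-7e-5p stood at 134 ± 116 CPM, let-7b-5p at 122 ± 87.5, let-7c-5p at 106 ± 61.2, miR-98-5p at 92.0 ± 36.7 and let-7f-5p at 82.8 ± 58.5 (SD, n = 4). The range of let-7a-5p did not overlap that of the next name, whereas from let-7e-5p downward the range of every name overlapped that of its neighbour in the order. The name in the second place changed with the library: let-7e-5p in both wild-type libraries (41 and 61 reads), let-7f-5p in knockout replicate 1 (29 reads) and let-7b-5p in knockout replicate 2 (84 reads). The 3′ arms, which are usually discarded, made up 15.5% to 23.5% of the family's reads. Over the 4 libraries together let-7f-2-3p was the most counted of them, with 10 and 23 reads in wild-type and 10 and 19 in knockout. The leading 3′ arm changed with the library as well. It was miR-98-3p in wild-type replicate 1 (16 reads) and let-7f-2-3p in wild-type replicate 2. In knockout it was let-7a-2-3p in replicate 1 (23 reads) and let-7d-3p in replicate 2 (24 reads).

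**Figure D2:**
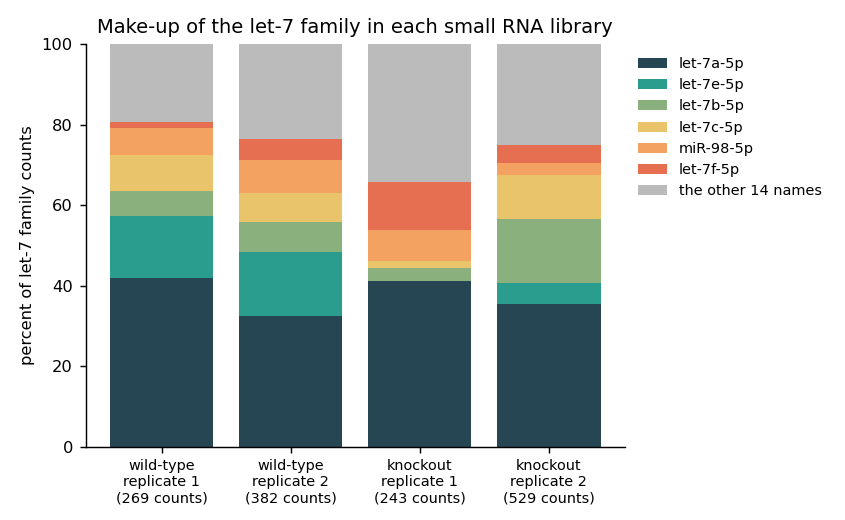
Share of the family's reads taken by the 6 names with the highest mean level and by the other 14 names together, as stacked bars from 0 to 100% for each small RNA library. let-7a-5p takes 32.5% to 42.0% in every library, while let-7e-5p takes 15.2% and 16.0% in wild-type, 0% in knockout replicate 1 and 5.29% in knockout replicate 2.

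Of the 13 members tested between knockout and wild-type, 0 passed the threshold (edgeR, adjusted p under 0.05), against 0.366% of all 546 microRNAs tested. At an unadjusted p under 0.05 there were also 0. DESeq2 called 0 of the 13, against 0.916% of all tested, and the fit with the date as a block called 0, against 1.1%. The fitted log2 fold changes ran from -2.41 to 3.79 with standard errors of 0.47 to 2.32, 7 of them positive and 6 negative, with a median of 0.05. With errors of that size changes of several-fold could not be told from no change. The spread between libraries was large as well as the counts low: the fitted biological coefficient of variation was 109%. That value is a single figure fitted over all 546 microRNAs, and the standard error of each name came from its own F test. let-7a-5p, with the most reads, still had the standard error of 0.47. Its own replicates lay close together, with an SD of 9.52 CPM in wild-type and 4.01 CPM in knockout. The scaling of these libraries was itself uncertain: the median log2 fold change over all tested microRNAs was -0.11 with TMM and 0.14 with library size alone. On the latter scale let-7a-5p had a log2 fold change of 0.32.

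let-7e-5p was the member with the largest fitted fall. It had 41 and 61 reads in wild-type and 0 and 28 in knockout, or 189 and 263 CPM against 0 and 81.5 CPM. Both knockout libraries lay below both wild-type libraries, and the 0 in knockout replicate 1 allows a share of up to 0.00190% of that library's counts. The log2 fold change of -2.41 ± 1.51 had a 95% interval of -5.99 to 1.18 (edgeR adjusted p = 0.999). The value rested on knockout replicate 1: without that library it was -1.44 (adjusted p = 0.998), and without knockout replicate 2, where the library with 0 reads stood alone for the knockout, it was -8.55 and passed the threshold (adjusted p = 0.0430).

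let-7g-5p and let-7i-5p went the other way. let-7g-5p had 1 read in each wild-type library and 17 and 15 in knockout (4.62 and 4.32 CPM against 93.4 and 43.6 CPM). The ratio of its pooled levels was 13.6, with an exact 95% interval of 3.48 to 117 that covers counting error alone. In the fit that also weighs the spread between libraries its log2 fold change was 3.79 ± 2.28 (edgeR adjusted p = 0.999). let-7i-5p had 3 reads in each wild-type library and 9 and 36 in knockout (13.9 and 12.9 CPM against 49.5 and 104.7 CPM; log2 fold change 2.49 ± 1.74, adjusted p = 0.999). For both names every knockout library lay above every wild-type library at both dates. These names, and let-7d-3p, entered the test through the knockout libraries alone, and let-7a-3p and miR-98-3p through the wild-type libraries alone, so that a difference in that direction was built into their being tested. Groups that did not overlap were found for 7 of the 13 tested members and for 31.5% of all tested microRNAs, and nothing is read from that count.

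The other abundant 5′ arms had no common direction. let-7b-5p had 17 and 28 reads in wild-type and 8 and 84 in knockout (78.5 and 121 CPM against 44.0 and 244 CPM). let-7c-5p, which differs from let-7a-5p by 1 base, had 24 and 28 reads in wild-type and 4 and 58 in knockout (111 and 121 CPM against 22.0 and 169 CPM). For both names knockout replicate 1 was the lowest library and knockout replicate 2 the highest, so that the knockout libraries spanned the wild-type ones. let-7f-5p had 4 and 20 reads in wild-type and 29 and 23 in knockout, with the highest level in knockout replicate 1. miR-98-5p had 18 and 31 reads in wild-type and 19 and 16 in knockout. The fitted log2 fold changes of these names were 0.54 ± 1.09, -0.26 ± 1.19, 1.09 ± 1.30 and -0.53 ± 1.09, and their groups overlapped in each case. Leaving out 1 library moved the value of let-7f-5p to between 0.43 (without knockout replicate 1) and 2.49 (without wild-type replicate 2), and turned the sign of the other 3.

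Among the 3′ arms, miR-98-3p had 16 and 19 reads in wild-type and 5 and 10 in knockout (73.9 and 82.0 CPM against 27.5 and 29.1 CPM). Its groups did not overlap, as for 31.5% of all tested microRNAs, and its log2 fold change was -1.44 ± 1.38 (edgeR adjusted p = 0.999). let-7a-3p had 10 and 16 reads against 0 and 12, and let-7d-3p had 9 and 0 against 9 and 24. As said above, the group that carried each of these names into the test built in the direction of its difference. let-7a-2-3p, the 3′ arm specific to the let-7a-2 hairpin, had 1 and 12 reads in wild-type and 23 and 12 in knockout. Without 1 library the log2 fold change of let-7a-3p (-1.65) ran from -6.59 to -0.68, that of let-7d-3p (1.51) from 0.41 to 6.96 and that of let-7a-2-3p (1.48) from 0.40 to 3.90. Of the names below the limit for testing, let-7g-3p had 1 and 6 reads in wild-type and 4 in each knockout library. let-7d-5p had 10 reads in wild-type replicate 2 and 0 elsewhere, let-7b-3p had 6 reads in knockout replicate 1, 1 in knockout replicate 2 and 0 in wild-type, and let-7e-3p had 1 read in all.

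Some let-7 hairpins are transcribed in clusters with members of the miR-99/100 and miR-125 families, which LIN28 is not known to hold back in the same way, and the products of 1 cluster differed widely in level. On chromosome 19 the let-7e hairpin lies 105 bases from that of miR-99b and 390 bases from that of miR-125a, within SPACA6. miR-99b-5p had 8141 and 12965 reads in wild-type and 5729 and 17791 in knockout and ranked between the 4th and the 6th most counted name. For each read of let-7e-5p there were 199 and 213 reads of miR-99b-5p in the wild-type libraries and 635 in knockout replicate 2; in knockout replicate 1, with 0 reads of let-7e-5p, the ratio was at least 1910 against a floor of 3 reads. miR-125a-5p was nearer to let-7e-5p, with 166 and 36 reads in wild-type and 54 and 183 in knockout. Counts of different microRNAs also depend on how well each sequence is ligated and amplified, so these ratios are levels in these libraries and not molecules per cell.

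**Figure D3:**
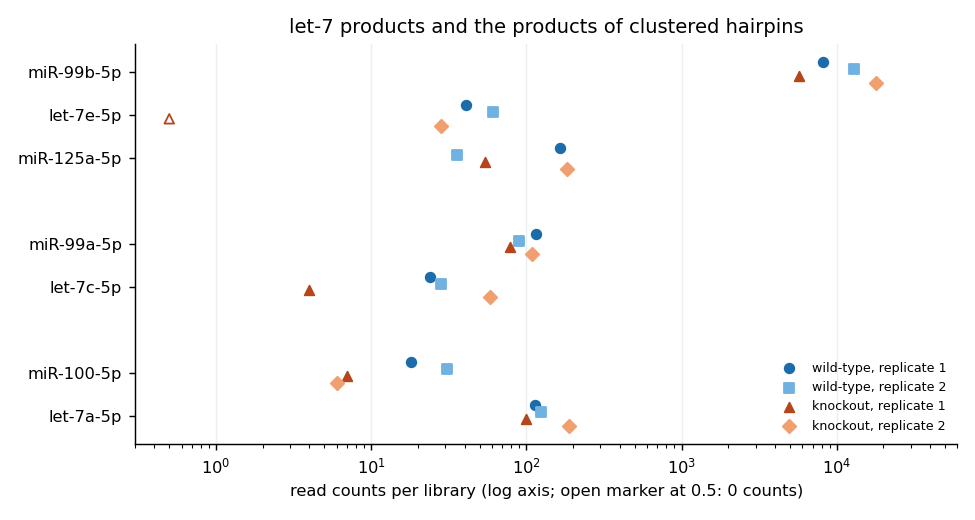
Read counts per small RNA library, on a log axis, for let-7e-5p, let-7c-5p and let-7a-5p and for products of hairpins clustered with theirs, with an open marker at 0.5 for a count of 0. miR-99b-5p lies at 5729 to 17791 reads, while let-7e-5p from the same cluster lies at 0 to 61.

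On chromosome 21 the let-7c hairpin lies 659 bases from that of miR-99a in the host transcript MIR99AHG. miR-99a-5p had 116 and 90 reads in wild-type and 79 and 109 in knockout, which gave 4.83 and 3.21 reads for each read of let-7c-5p in wild-type and 19.8 and 1.88 in knockout. miR-100-5p, from a hairpin 5636 bases from that of let-7a-2 on chromosome 11, had 18 and 31 reads in wild-type and 7 and 6 in knockout (log2 fold change -1.96 ± 1.33, edgeR adjusted p = 0.999). miR-125b-5p had 17 and 13 reads against 20 and 66 (1.16 ± 0.98, edgeR adjusted p = 0.999). miR-99b-3p had 1 read in each wild-type library and 15 and 17 in knockout (3.74 ± 2.32, edgeR adjusted p = 0.999). It entered the test through the knockout libraries alone, so a difference in that direction was built into its being tested. The other clustered names, miR-125b-1-3p, miR-125b-2-3p, miR-99a-3p, miR-100-3p and miR-125a-3p, had 8 to 26 reads in all and were not tested.

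Genes whose bounds span let-7 hairpins were measured in RNA-seq, and 0 of the 5 tested were called (edgeR), with 0 at an unadjusted p under 0.05 and 0 with DESeq2. The counts are per gene symbol, so transcripts that still hold the hairpin were not told apart from spliced RNA. Over all genes 6.56% were called by edgeR and 3.61% by DESeq2, so 0 of 5 is close to the background. HUWE1, a ubiquitin ligase gene that spans the hairpins of miR-98 and let-7f-2, stood at 616 and 687 CPM in wild-type and 637 and 759 CPM in knockout (0.10 ± 0.07). WDR82, which spans that of let-7g, had a log2 fold change of 0.02 ± 0.06, MIRLET7BHG 0.15 ± 0.14, MIR99AHG -0.08 ± 0.16 and SPACA6, listed as SPACA6P, 0.23 ± 0.16. MIRLET7DHG had 0 reads, and MIRLET7A1HG, MIRLET7IHG and MIR100HG were not matched to a listed symbol. The 12 hairpin genes themselves stayed under 1 CPM in every total RNA library, and 5 of them had 0 reads throughout.

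LIN28A was lower in the knockout clone. It had 756 and 743 reads in wild-type and 582 and 414 in knockout, or 36.3 and 30.1 CPM against 27.5 and 20.8 CPM. Both knockout libraries lay below both wild-type libraries, and within each date the knockout library was the lower one, by log2 ratios of -0.40 and -0.53. The group levels were 33.2 ± 4.42 and 24.2 ± 4.74 CPM (SD, n = 2). The log2 fold change was -0.45 ± 0.12 (SE; edgeR adjusted p = 0.0116) with a 95% interval of -0.69 to -0.22, a fall to a level 1.37-fold lower. The margin between the nearest libraries of the groups, 30.1 and 27.5 CPM, was smaller than the SD within either group. The call was lost with DESeq2 (adjusted p = 0.0565), without wild-type replicate 1 (adjusted p = 0.216) and without knockout replicate 2 (adjusted p = 0.246). Of all 16233 genes tested 6.56% were called, 3.5% as lower. With the date as a block LIN28A was also called lower (adjusted p = 2.80e-04), among 9.55% of all genes. In cultures measured in bulk, fewer cells with the transcript and less transcript per cell cannot be told apart.

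LIN28B had a log2 fold change close to 0. It had 2596 and 3038 reads in wild-type and 2542 and 2283 in knockout, or 125 and 123 CPM against 120.2 and 115 CPM. The knockout libraries again lay below the wild-type libraries, as the groups of 45.3% of all tested genes did not overlap in one direction or the other. The log2 fold change was -0.08 ± 0.07 (edgeR adjusted p = 0.653) and its 95% interval ran from -0.21 to 0.06, which leaves out a change as large as that fitted for LIN28A. Whether the 2 genes differed in their response was not tested. Gene lengths as counted are not given, so their levels were not compared with each other. LIN28A lies on chromosome 1 (26410817 to 26429728) and LIN28B on chromosome 6 (104937026 to 105083332), in GRCh38. The pseudogenes LIN28AP1 and LIN28AP2 had 0 reads in every library, and the antisense transcript LIN28B-AS1, listed as LINC00577, had 2 reads in wild-type replicate 1 and 0 elsewhere.

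**Figure D4:**
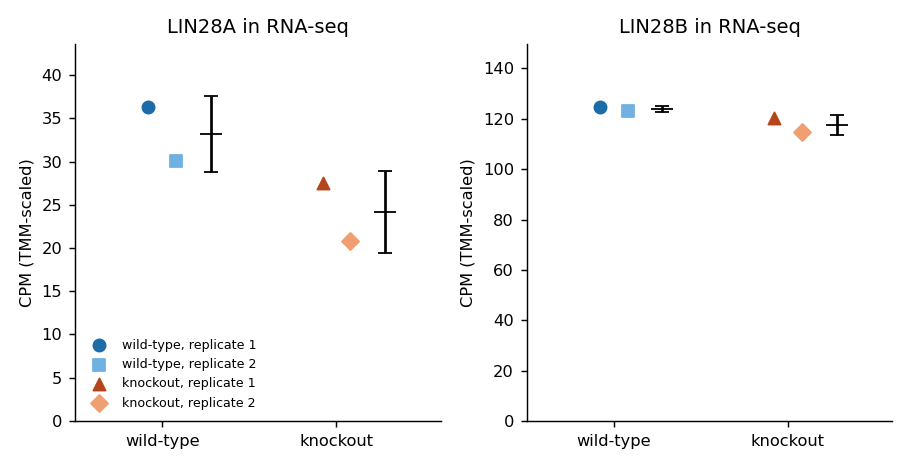
Level of LIN28A (left) and LIN28B (right) in CPM on axes that start at 0, with 1 marker per RNA-seq library and the mean ± SD of each group beside them. For LIN28A the knockout markers lie at 27.5 and 20.8 CPM and the wild-type markers at 36.3 and 30.1 CPM; for LIN28B all 4 lie between 115 and 125 CPM.

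The genes whose levels ran most like those of the members over the 4 libraries, by the distance between log2 CPM centred on each gene's mean, were ELL2 (distance 0.05), CCR10 (0.07) and CEBPB (0.07) for LIN28A, among 13037 candidates. For LIN28B they were the chaperonin gene CCT3 (0.0050), C1QBP (0.0096) and the deubiquitinase gene USP9X (0.01). For let-7a-5p, among 545 microRNAs, they were miR-10398-3p (0.18), miR-924 (0.19) and miR-548aw (0.19). The likeness rests on 4 libraries and is a description.

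No other gene that acts on let-7 RNAs was called among those listed. Of 24 listed genes all were tested and 0 were called in either direction (edgeR), 1 had an unadjusted p under 0.05, and DESeq2 called 0. Over all genes edgeR called 6.56% and DESeq2 3.61%, so a count of 0 in a list of 24 is not far from the background. Their median log2 fold change was 0.02, against 0.00 over all genes tested, and they ranged from -0.19 to 0.14. The gene with the small unadjusted p was DROSHA, which had 58.1 and 59.8 CPM in wild-type and 49.9 and 53.2 CPM in knockout (log2 fold change -0.19 ± 0.08, edgeR adjusted p = 0.173). Its partner DGCR8 stood at 67.5 and 64.9 CPM against 72.5 and 71.7 CPM (0.12 ± 0.08), and DICER1 at 203 and 196 CPM against 209 and 196 CPM (0.02 ± 0.06). Of the enzymes that act with LIN28, TUT4 (listed as ZCCHC11) had a log2 fold change of -0.12 ± 0.08, TUT7 (listed as ZCCHC6) -0.03 ± 0.10 and the nuclease gene DIS3L2 0.04 ± 0.10. With library size alone as the scaling the sign for DICER1 turned (-0.01). Fits without 1 library turned the sign for TUT7 (up to 0.05) and for DIS3L2 (down to -0.12).

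**Figure D5:**
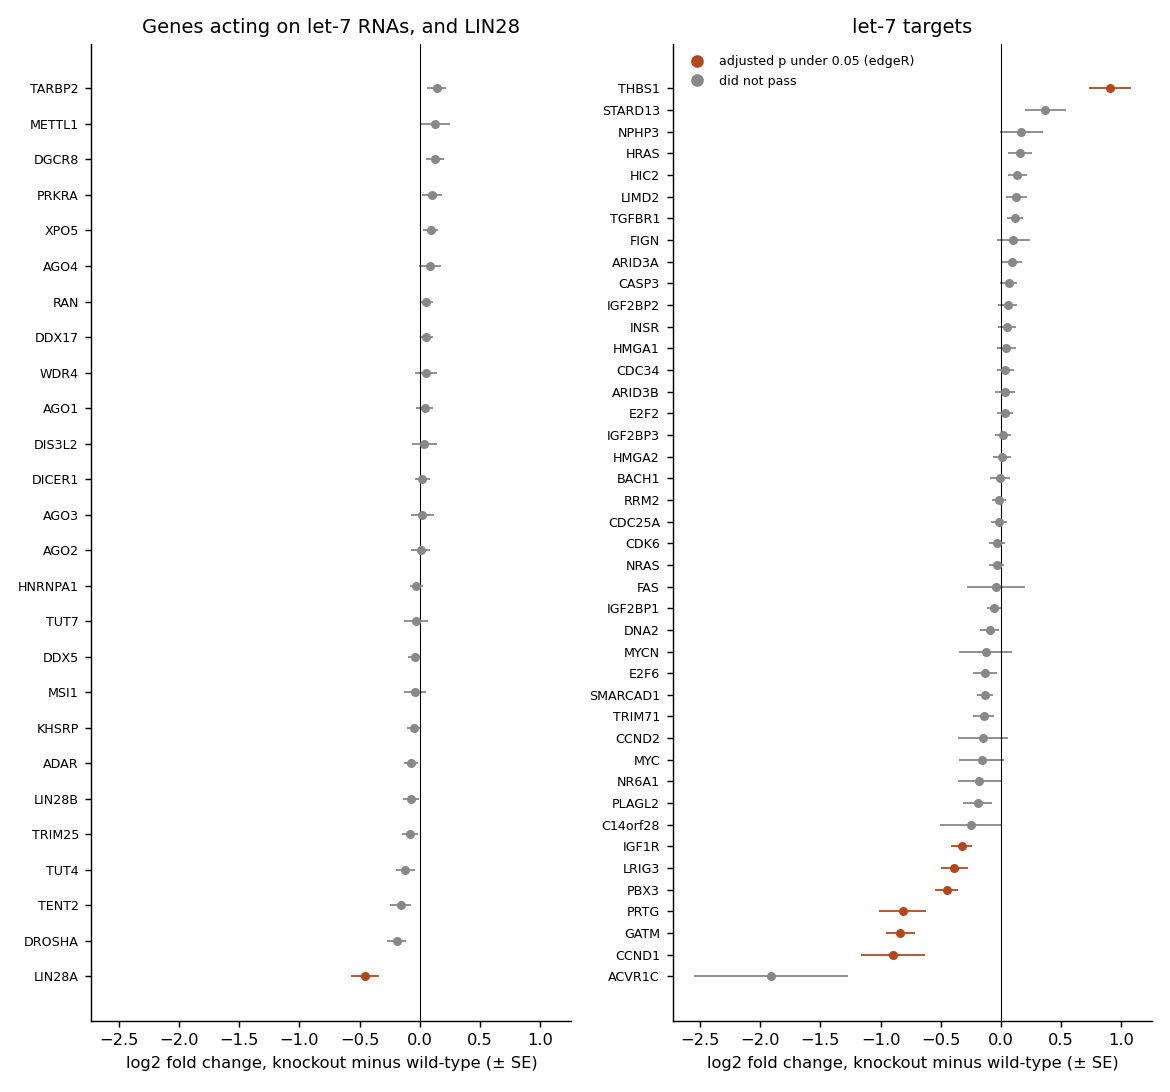
Log2 fold change of knockout minus wild-type, with its standard error, for the 24 genes that act on let-7 RNAs together with LIN28A and LIN28B (left) and for 42 of the 43 tested let-7 targets (right), with genes past an adjusted p of 0.05 in red. On the left LIN28A is the 1 red point; on the right THBS1 is red on the positive side and 6 genes are red on the negative side.

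Genes known as let-7 targets moved in both directions, and 7 of the 8 called were falls. Of 45 listed targets 43 were tested; 1 was higher and 7 were lower in knockout. That is 18.6% of them against 6.56% of all genes tested, of which 3.06% were higher and 3.5% lower. The list was chosen with earlier results of these data known, so nothing is read from the gap between these shares. The median log2 fold change of the 43 was -0.03, against 0.00 over all genes, and 18 had a positive and 25 a negative sign. DESeq2 called 1 higher and 2 lower, where it called 3.61% of all genes, 1.57% higher and 2.04% lower. Without wild-type replicate 2 the number called was 2, with 1 higher and 1 lower, and without knockout replicate 2 it was 4, with 1 higher and 3 lower.

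The rise was that of THBS1, which encodes the matrix glycoprotein thrombospondin 1. It stood at 7.26 and 4.86 CPM in wild-type and 9.79 and 12.7 CPM in knockout (log2 fold change 0.90 ± 0.17, edgeR adjusted p = 3.01e-04). GATM, an enzyme gene of creatine synthesis, fell from 21.3 and 24.8 CPM to 12.4 and 13.5 CPM (-0.84 ± 0.12, adjusted p = 5.36e-07). PBX3, a homeodomain factor gene, fell from 34.4 and 37.4 CPM to 25.7 and 26.9 CPM (-0.45 ± 0.10, adjusted p = 7.63e-04). These 3 were the targets also called by DESeq2, with adjusted p-values of 0.00833, 8.59e-06 and 0.00755. The PBX3 call was lost without wild-type replicate 2 (adjusted p = 0.0649).

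Other falls were smaller or rested on fewer reads. The growth factor receptor gene IGF1R fell by 0.33 ± 0.09 on the log2 scale (edgeR adjusted p = 0.0104), LRIG3 by 0.39 ± 0.11 (adjusted p = 0.0245), the cell adhesion gene PRTG by 0.82 ± 0.19 (adjusted p = 0.00328) and the cyclin gene CCND1 by 0.89 ± 0.26 (adjusted p = 0.0301). CCND1 had 65 and 121 reads in wild-type and 33 and 56 in knockout, and its 2 wild-type libraries differed nearly as much as the groups did. With DESeq2 these calls were lost, with adjusted p-values of 0.0637 for IGF1R, 0.161 for LRIG3, 0.0630 for PRTG and 0.307 for CCND1. They were lost as well without wild-type replicate 2 (adjusted p = 0.182 for IGF1R, 0.435 for LRIG3, 0.0854 for PRTG and 0.555 for CCND1). Without knockout replicate 2 the calls of IGF1R, LRIG3 and PRTG were lost (adjusted p = 0.218, 0.143 and 0.166), and without knockout replicate 1 that of CCND1 (0.337).

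The targets most often used to read let-7 activity were not called. HMGA2, a chromatin protein gene with many let-7 sites, stood at 75.6 and 75.5 CPM in wild-type and 78.9 and 72.7 CPM in knockout (log2 fold change 0.01 ± 0.07, 95% interval -0.14 to 0.15, edgeR adjusted p = 0.986). IGF2BP1, which encodes a fetal RNA-binding protein, stood at 234 and 235 CPM against 218 and 232 CPM (-0.06 ± 0.06, adjusted p = 0.713). TRIM71, an embryonic ubiquitin ligase gene, stood at 51.4 and 43.3 CPM against 42.6 and 43.0 CPM (-0.14 ± 0.09, adjusted p = 0.451). MYC, at 219 and 288 CPM in wild-type and 210.0 and 244 CPM in knockout, changed by -0.16 ± 0.19 in the fit (log2, adjusted p = 0.802, not called), and its 2 dates differed more than its groups. Without wild-type replicate 1 MYC was called lower (-0.35, adjusted p = 0.00211), and without wild-type replicate 2 its sign turned (0.06).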

How the data were processed

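Per the submitters' processing notes the files were made with FastQC, cutadapt, STAR, SAMtools, featureCounts and Subread on hg38, without roles. Not given in the sources used here are versions, annotation, strand setting and the treatment of reads with several matches. The authors deposited raw whole-number counts, 1 file per library, per gene symbol or mature microRNA name; 1 microRNA row named with an asterisk held 0 counts and was left out. Libraries were grouped by their titles.

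Each assay was fitted over its 4 libraries in R 4.3.3 with edgeR 4.0.16: filterByExpr (minimum count 10), which kept 16233 genes and 546 microRNAs, TMM scaling, and the robust quasi-likelihood F test of knockout against wild-type. P-values were adjusted by Benjamini-Hochberg across every row tested in an assay (threshold 0.05). A standard error is the log2 fold change divided by the square root of F, and its 95% interval uses the test's degrees of freedom. The code was tested on simulated counts. Alternatives were DESeq2 1.42.0, library size or RLE scaling, no filter, the date as a block, each library left out, and miR-3168 and miR-8052 left out.

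The members and the lists of let-7 targets, processing genes, host genes and markers were chosen with earlier results of these data known. Named were all members with reads, called list members (up to 8 each way), all host genes and clustered microRNAs, BCDIN3D, HMGA2, IGF2BP1, MYC, TRIM71, DICER1, DROSHA, DGCR8, TUT4, TUT7 and DIS3L2, and the 3 rows most like LIN28A, LIN28B and let-7a-5p (mean of at least 1 CPM for genes and 10 for microRNAs, prior count 2). Other marker genes were named after their values were seen. Of the called let-7 targets 1 is counted but not reported here. The main fits had no term for the date. Only in the blocked fit and in the ratios within a date were libraries of the same date taken as pairs, because the labels share the date. Deviations of same-date libraries from their group means correlated by 0.08 in RNA-seq and -0.09 in small RNA.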

Additional observations from a re-analysis of the deposited data

How the results depend on the processing

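The fall of LIN28A kept its direction in every alternative, but missed the threshold with DESeq2 (-0.46) and in some fits without 1 library, which ranged from -0.67 to -0.27. LIN28B (-0.11 to -0.04 without 1 library) was not called in any alternative, and the count of called processing genes stayed at 0 of 24. With the date as a replicate block LIN28A had -0.46 (blocked adjusted p = 2.80e-04), and the block changed no call among the members, the listed genes and the clustered microRNAs; the blocked values of the genes named for their likeness were not compared. The number of RNA-seq genes called was 1065, and 586 with DESeq2, 1551 with the block and 660 to 1389 without 1 library. That of microRNAs was 2, and 5 with DESeq2 or with no filter, 6 with the block and 0 to 5 without 1 library. Of the let-7 members 0 were called, with 0 to 1 without 1 library. Of the let-7 targets 8 were called, 3 with DESeq2 and 2 to 9 without 1 library. Signs turned for values near 0 or with few reads: DICER1 (-0.0065) and HMGA2 (-0.021) with library size alone and let-7a-5p (-0.0055) with no filter. In fits without 1 library DICER1 ranged from -0.024 to 0.065, HMGA2 from -0.055 to 0.064, DIS3L2 from -0.12 to 0.19, TUT7 (listed as ZCCHC6) from -0.12 to 0.049, MYC from -0.35 to 0.056, let-7a-5p from -0.041 to 0.13, let-7b-5p from -1.10 to 1.33, let-7c-5p from -2.32 to 0.56, let-7f-2-3p from -0.74 to 0.14 and miR-98-5p from -1.17 to 0.014. The cause was not tested. Where a group was left with 1 library, that library is assumed to vary like the other group. Low counts and the spread between small RNA libraries both limit statements on single let-7 names; their parts were not separated.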
